A study of Drosophila busckii and Drosophila melanogaster and Drosophila virilis with 5 samples.

Results

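The regions described here are the topologically associating domains (TADs) of 10 kb or shorter in the embryos of 3 fly species. Each TAD was measured from a boundary centre to the next boundary centre on its arm, and a member is any TAD of at most 10000 bp. The 3 lists of boundaries held 816 members among 6452 TADs: 238 of 2121 in Drosophila virilis, 259 of 2128 in Drosophila busckii and 319 of 2203 in Drosophila melanogaster. The members were selected on boundary positions that were themselves measured, so their length is a description and not a finding.

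In situ Hi-C, a proximity ligation assay of contacts between loci, was carried out on whole mixed-sex embryos of stage 15 to 16. The stocks were 15010-1051.0 for D. virilis, 13000-0081.31 for D. busckii and w1118 Oregon R for D. melanogaster. Each species has 1 map, merged from 2 replicates, and 1 boundary list, so no value below has a replicate error and no difference was tested; intervals are 95% binomial (Wilson) intervals that cover counting error only. D. busckii embryos were fixed by another procedure and its dangling ends were removed, so species and protocol cannot be told apart in any contrast with D. busckii. The paper also reports a different total of useful reads for each map, on genomes of different length. Species and read depth therefore cannot be told apart in any contrast between species.

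Loci within a TAD meet more often than loci on either side of its boundary do. In flies TAD boundaries commonly lie at promoters of broadly expressed genes and at sites bound by architectural proteins such as BEAF-32, M1BP, CTCF and Su(Hw). M1BP binds Motif 1, an element of many housekeeping promoters, and BEAF-32 binds a sequence that overlaps the DNA replication-related element (DRE). Each boundary carries a TAD-separation score. The fewer the contacts across a boundary, the lower its score, and a low score is called strong here. No source says that scores of different maps share a scale, so they are compared within each list alone.

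Examples of the DNA at the ends of members can be given for D. melanogaster. Motif 1 (GGTCACACT) or the BEAF-32/DRE sequence (TATCGATA), on either strand, lay within 500 bp of both boundary centres in 16 of the 258 members on the arms considered for display. The 4 shortest of these are shown because they let both ends of a member be read together. Positions are on BDGP6 and the letters are the plus strand of its RefSeq sequence, with the motif match in capitals and 26 bases on either side.
Dhpr and Use1 TAD, 3L:9134540-9137420, left end: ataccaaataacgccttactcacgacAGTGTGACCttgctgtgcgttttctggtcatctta
Dhpr and Use1 TAD, right end: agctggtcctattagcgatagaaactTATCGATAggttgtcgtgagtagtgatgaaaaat
TAD with no gene start, 3L:9855317-9859483, left end: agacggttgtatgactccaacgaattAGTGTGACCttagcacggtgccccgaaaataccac
TAD with no gene start, right end: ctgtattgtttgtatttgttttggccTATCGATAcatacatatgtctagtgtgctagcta
CG3337 and Nelf-A TAD, 3R:21219083-21223740, left end: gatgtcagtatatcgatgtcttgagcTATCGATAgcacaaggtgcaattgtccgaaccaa
CG3337 and Nelf-A TAD, right end: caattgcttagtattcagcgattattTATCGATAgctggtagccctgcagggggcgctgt
CG32344 TAD, 3L:319922-324913, left end: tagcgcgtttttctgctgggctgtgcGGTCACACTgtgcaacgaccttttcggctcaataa
CG32344 TAD, right end: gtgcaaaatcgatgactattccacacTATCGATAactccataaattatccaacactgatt
In 3 of these 4 TADs 1 end carries Motif 1 and the other the DRE, and in the CG3337 and Nelf-A TAD both carry the DRE. Their lengths were 2.88 kb, 4.17 kb, 4.66 kb and 4.99 kb in the order shown. Dhpr encodes dihydropteridine reductase and Nelf-A a subunit of the negative elongation factor that holds RNA polymerase II near the promoter. The Dhpr and Use1 TAD had end scores of -0.0631 and -0.0667, and the CG3337 and Nelf-A TAD had -0.136 and -0.135. A match is a description of letters and not of a bound site.

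Short TADs made up 11.2% of TADs in D. virilis (9.95% to 12.6%). The share was 12.2% in D. busckii (10.8% to 13.6%), while D. melanogaster had 14.5% (13.1% to 16.0%). They covered little of the genome. Members summed to 1.40 Mb, or 0.908% of the length in TADs, in D. virilis, to 1.68 Mb (1.53%) in D. busckii and to 1.797 Mb (1.38%) in D. melanogaster. The median member measured 5.76 kb in D. virilis (quartiles 4.33 and 7.58 kb), against 44.0 kb for longer TADs. In D. busckii it measured 6.69 kb (5.10 and 7.99 kb), against 37.9 kb, and in D. melanogaster 5.58 kb (3.90 and 7.14 kb), against 40.8 kb.

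**Figure D1:**
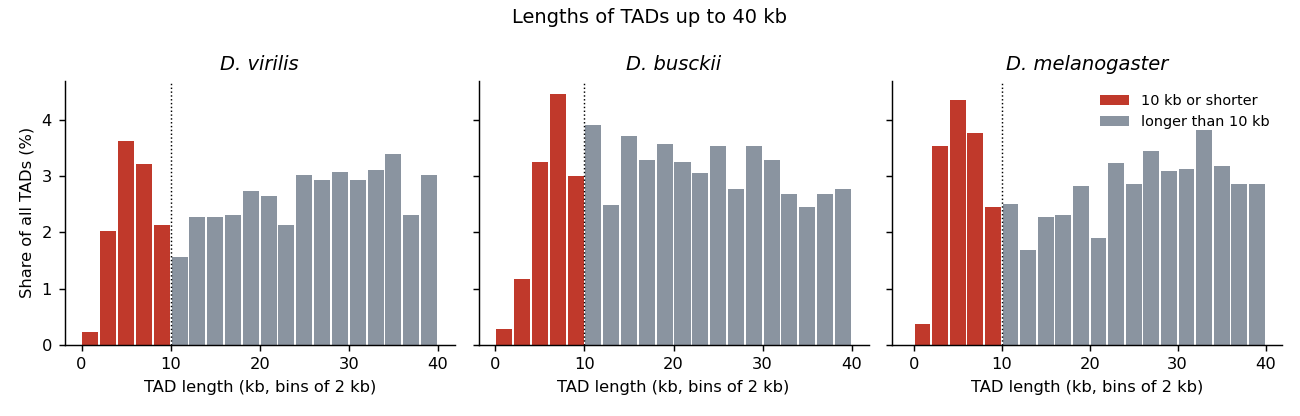
Share of all TADs in each 2 kb bin of TAD length, up to 40 kb, for D. virilis, D. busckii and D. melanogaster, with members in red and longer TADs in grey. The bins of D. virilis and D. melanogaster peak between 4 and 6 kb, at 77 and 96 TADs, and are lower just past 10 kb.

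The plot of lengths shows how the members sit in the whole distribution. In D. virilis the bin from 4 to 6 kb held 77 TADs, the bin from 10 to 12 kb held 33 and the bin from 18 to 20 kb held 58. In D. melanogaster these bins held 96, 55 and 62 TADs, and the bin from 12 to 14 kb was lower still at 37. D. busckii had 95 TADs from 6 to 8 kb, 83 from 10 to 12 kb and 53 from 12 to 14 kb. The threshold of 10 kb therefore fell on the low side of a peak in D. virilis and D. melanogaster and in the middle of a flatter stretch in D. busckii. The longest member and the shortest TAD left out measured 9970.5 and 10025 bp in D. virilis, 9994 and 10001 bp in D. busckii, and 9981.5 and 10001.5 bp in D. melanogaster.

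The shortest members were shorter than many genes. In D. virilis the shortest was 1.38 kb, on arm 2R of the authors' assembly from 20521441 to 20522816, wholly within the gene GJ21470. The next, at 2R from 23802069 to 23803554, measured 1.49 kb and held no gene start; the nearest start, 25666 bp from its left end, was that of Kr, a gap transcription factor gene in D. melanogaster. Of the 5 shortest members of D. virilis 1 held a start, that of GJ17122 on 3R. The shortest of D. busckii measured 1.00 kb, at 2R from 18785273 to 18786272. In D. melanogaster the shortest measured 0.947 kb, at X from 4621839 to 4622785, within peb, the zinc-finger transcription factor gene also known as hindsight. The other 4 of the 5 shortest there measured 1.098 to 1.36 kb, and 1 of them held a start, that of the noncoding lncRNA:CR44861. None of the 5 shortest in D. melanogaster held a coding start.

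Members lay on all 6 arms of every species. In D. virilis the share of TADs that were short ran from 9.05% on 2L (36 of 398) to 13.4% on 2R (55 of 409), with 11.1% on X (41 of 368). In D. busckii it ran from 10.6% on X (40 of 376) to 14.2% on 2R (75 of 530) among the long arms. In D. melanogaster it ran from 13.4% on 2L (52 of 389) to 16.1% on X (62 of 384). The intervals of the long arms overlapped within each species, and differences between arms were not tested. The small chromosome 4 held 3 of 31, 4 of 28 and 2 of 31 TADs in D. virilis, D. busckii and D. melanogaster, which fixes its share only loosely.

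**Figure D2:**
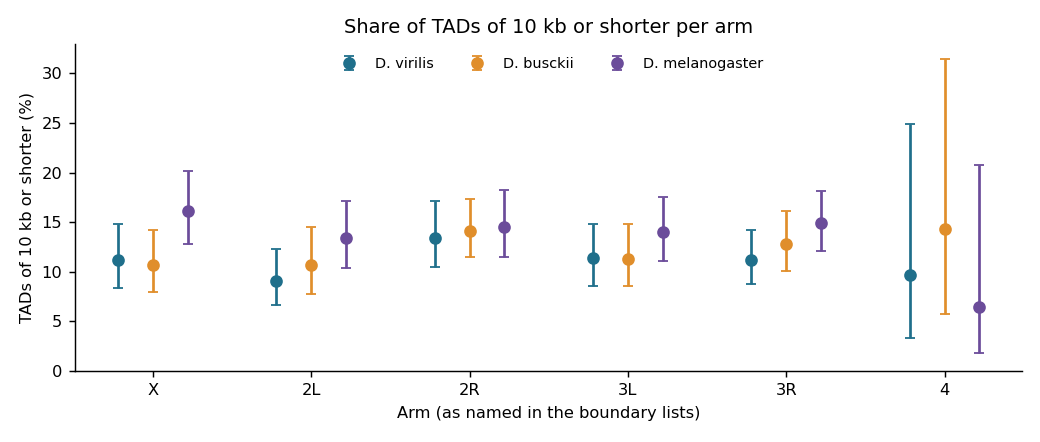
Share of TADs of 10 kb or shorter on each arm, with 95% Wilson intervals, for D. virilis (left point of each arm), D. busckii and D. melanogaster. Long arms lie between 9.05% and 16.1%, and the intervals of chromosome 4 are wide.

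Per length, members were sparser in D. virilis on each of the 5 long arms, and so were TADs of any length. All TADs numbered 2121 over 154 Mb in D. virilis, 2128 over 110 Mb in D. busckii and 2203 over 130 Mb in D. melanogaster. The long arms of D. virilis held 1.21 to 2.07 members per Mb of the span between outermost boundaries, those of D. busckii 1.77 to 3.12 and those of D. melanogaster 2.22 to 2.70. On X the values were 1.25 per Mb in D. virilis, 1.77 in D. busckii and 2.70 in D. melanogaster. Chromosome 4 had the highest density in D. virilis, at 2.58 per Mb, and in D. busckii, at 4.37 per Mb. Its 1.72 per Mb was the lowest in D. melanogaster. These densities of chromosome 4 rest on 3, 4 and 2 members. Chromosome 4 was also dense in TADs of any length, with 31 over 1.16 Mb in D. virilis. It had 28 over 0.916 Mb in D. busckii and 31 over 1.16 Mb in D. melanogaster.

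Most members stood alone between longer TADs. In D. virilis 191 members were single, 19 runs held 2 and 3 runs held 3. In D. busckii 209 were single, with 22 runs of 2 and 2 of 3, and in D. melanogaster 268 were single, with 24 runs of 2 and 1 of 3. A member shared a boundary with another member in 19.7% of cases in D. virilis (15.2% to 25.3%), 19.3% in D. busckii and 16.0% in D. melanogaster. Among the TADs that adjoin members, 10.5% in D. virilis were short (50 of 476; 8.06% to 13.6%), which is close to the 11.2% of all TADs. In D. busckii this share was 10.1% (7.75% to 13.0%), against 12.2% of all TADs. In D. melanogaster it was 8.15% (52 of 638; 6.27% to 10.5%), below the 14.5% of all TADs. The longer neighbours of members had median lengths of 43.4 kb in D. virilis, 38.5 kb in D. busckii and 43.2 kb in D. melanogaster, close to the medians of all longer TADs.

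Members were spread along the arms. The median distance from the midpoint of a member to that of the nearest other was 141 kb in D. virilis (quartiles 39.8 and 452 kb), 85.3 kb in D. busckii (32.6 and 243 kb) and 95.3 kb in D. melanogaster (35.7 and 274 kb). The outer 10% at either end of an arm held 15.1% of members and 17.3% of longer TADs in D. virilis. The shares were 19.7% of members and 21.1% of longer TADs in D. busckii, while D. melanogaster had 15.4% of members and 15.8% of longer TADs there. Stretches of at most 500 kb between member midpoints were searched for the most members. Each stretch runs from a member to a member, so longer TADs past its ends are not counted and its share is raised by construction. In D. virilis the fullest stretch lay on 2R from 13197241 to 13611437, where 7 of 14 TADs were members. In D. busckii 6 of 15 TADs were members on 3L from 172557 to 630702, and in D. melanogaster 8 of 19 on 3R from 20816186 to 21273526. The D. melanogaster stretch includes the RpS20 TAD and the CG3337 and Nelf-A TAD.

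The runs of 3 differed in strength. On 2L of D. virilis the run from 10106046 to 10128750 had TADs of 6.66, 9.91 and 6.14 kb, and its 4 boundaries scored -0.179, -0.165, -0.175 and -0.217. It held 8 coding starts in all, of genes that the annotation names only by GJ numbers, such as GJ15154 and GJ15168. The run on 3R from 2886309 to 2896264 had TADs of 5.11, 1.55 and 3.29 kb and scores of 0.0773, 0.00418, 0.00745 and -0.0218, which are weak for the list. In D. busckii the run on 3L from 6648957 to 6667598 scored -0.168, -0.164, -0.336 and -0.347. The only run of 3 in D. melanogaster, on X from 15785357 to 15802674, had TADs of 2.98, 6.84 and 7.504 kb and scores from -0.0477 to -0.123. It held mRpS30, which encodes a mitochondrial ribosomal protein, Paf-AHalpha, Rhp, and the neighbouring genes sordd1 and sordd2.

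The boundaries that end members were somewhat stronger than the rest. Their score is read from windows wider than a member, per the study's methods, so both ends of a member are measured on largely shared contacts and the comparison below is a description. In D. virilis the 451 boundaries that end a member had a median score of -0.0776 (quartiles -0.165 and 0.0141), against -0.0478 for the other 1676. In D. busckii the medians were -0.0909 for 492 boundaries and -0.0508 for the other 1642, and in D. melanogaster -0.1003 for 612 and -0.0680 for 1597. The quartiles of both groups overlapped in every list.

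The difference lay at the weak side of the lists. Boundaries of members were among the lowest 10% of scores about as often as others: 9.31% against 10.2% in D. virilis, 9.15% against 10.3% in D. busckii and 9.31% against 10.3% in D. melanogaster. In the highest 10% they were fewer: 5.76% (3.96% to 8.31%) against 11.2% (9.74% to 12.8%) in D. virilis, 4.47% against 11.7% in D. busckii and 5.72% against 11.6% in D. melanogaster. Boundaries that end members were also narrower, with median widths of 808 bp against 1035.5 bp in D. virilis, 912.5 bp against 1124.5 bp in D. busckii and 670 bp against 761 bp in D. melanogaster. Width is set by the matrix bins and was not tested as a source of any difference.

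**Figure D3:**
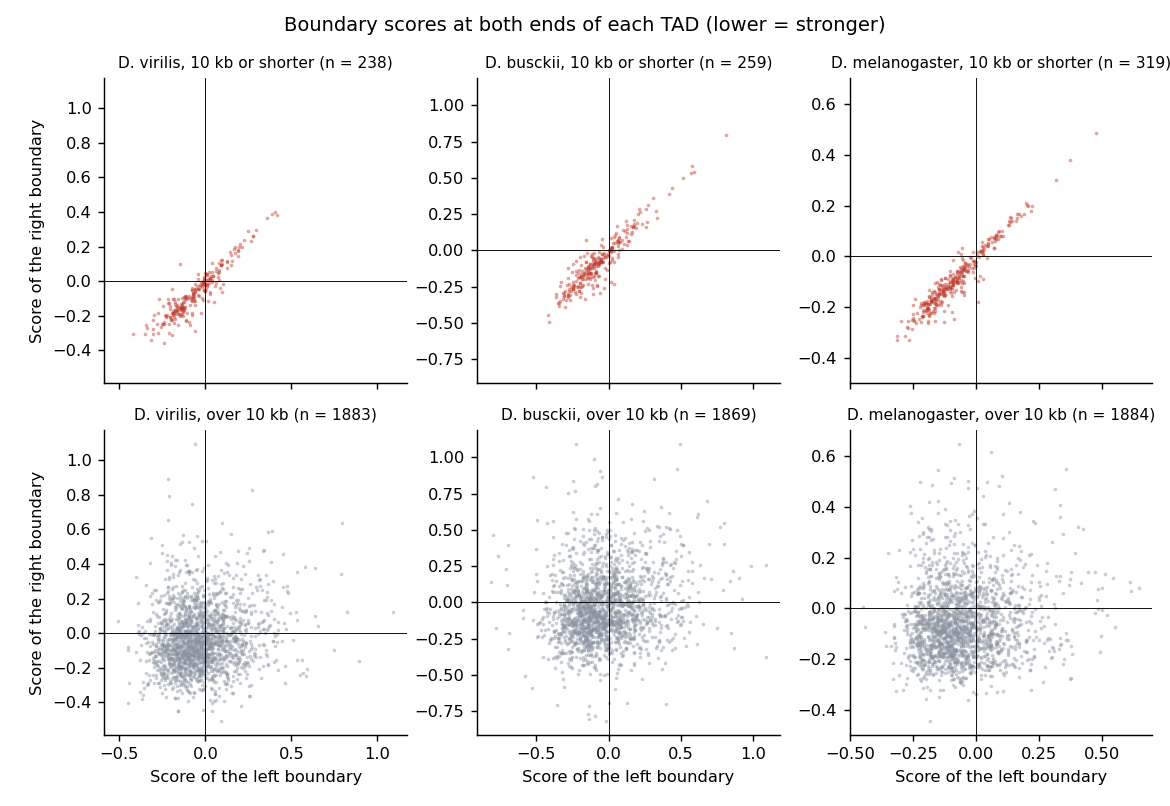
Score of the left boundary (x axis) and of the right boundary (y axis) of each TAD, for members (upper row, red) and TADs over 10 kb (lower row, grey), in D. virilis, D. busckii and D. melanogaster. Members lie along the diagonal and longer TADs form a round cloud.

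Both ends of a member had nearly the same score. Across members the rank correlation of left and right score was 0.893 in D. virilis (n = 238), 0.879 in D. busckii (n = 259) and 0.933 in D. melanogaster (n = 319), whereas across longer TADs it was 0.112, 0.149 and 0.0764. These are correlations across TADs, which share boundaries and contacts. The median difference between both scores of a D. virilis TAD was 0.0142 at lengths from 2.5 to 5 kb, 0.0270 from 5 to 7.5 kb and 0.0456 from 7.5 to 10 kb. It was 0.143 from 10 to 20 kb, 0.136 from 20 to 40 kb and 0.148 past 40 kb. In D. melanogaster these medians were 0.00839, 0.0228 and 0.0284 within the members and 0.0978, 0.1005 and 0.133 beyond. The difference thus grew with length among members, and the part of the shared windows in this was not tested.

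A member was usually strong at both ends or weak at both. In D. virilis 52.9% of members had both scores below the median of the list, against 26.2% of longer TADs, and 23.5% had both above 0, against 15.7%. In D. busckii 52.9% against 26.1% were below the median at both ends, and in D. melanogaster 54.5% against 24.8%. The strongest D. virilis member by mean score lay on chromosome 4 from 549700 to 557607, with scores of -0.422 and -0.307. It measured 7.91 kb and held 5 small nucleolar RNA genes, snoRNA:GJ25514 to snoRNA:GJ25518, beside GJ25952 and GJ21872. The second and the fourth by mean score were neighbours on 3L from 15412771 to 15422066, whose 3 boundaries scored -0.352, -0.307 and -0.305. The second of that pair packed 4 coding starts into 3.53 kb, those of GJ13346, GJ12034, GJ13345 and GJ12035.

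Among the strongest D. melanogaster members by mean score, that on 3R from 30046130 to 30051488 scored -0.282 and -0.315. It held RpL32, a ribosomal protein gene whose start lay 10 bp from the left boundary centre. The member on 3L from 13040740 to 13045002 scored -0.314 at both ends and held RpS4, 3 small nucleolar RNA genes and the syntaxin gene Syx13. In D. busckii the strongest member was on 3R from 7302377 to 7306737, at -0.414 and -0.494, and the next was on chromosome 4 from 488471 to 495907, at -0.421 and -0.441. No D. busckii gene was placed, since its genes were not used here.

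Boundaries of members lay at gene starts. Within 1000 bp of the boundary centre a transcription start of any gene was found at 74.5% of the D. virilis boundaries that end members (336 of 451; 70.3% to 78.3%) and at 63.1% of the other boundaries (60.8% to 65.4%), with 65.5% over all. In D. melanogaster the shares were 79.4% (486 of 612; 76.0% to 82.4%) and 75.3% (73.2% to 77.4%), with 76.5% over all, so the intervals overlapped there and not in D. virilis. Both ends lay at a start in 59.2% of D. virilis members (52.9% to 65.3%). The share was 43.9% in longer TADs (41.6% to 46.1%) and 45.6% in all. In D. melanogaster the shares were 67.7% (62.4% to 72.6%), 59.5% (57.3% to 61.7%) and 60.7%. On this measure the intervals of members and longer TADs did not overlap in either species, narrowly in D. melanogaster. Longer TADs lay on both sides of 80.3% of D. virilis and 84.0% of D. melanogaster members. Most boundaries of members therefore count in both groups, so these intervals are not independent and the difference was not tested. Neither end lay at a start in 22 D. virilis members (9.24%; 6.18% to 13.6%), against 14.8% of longer TADs and 14.1% of all. In D. melanogaster this held for 26 members (8.15%; 5.62% to 11.7%), against 7.48% of longer TADs and 7.58% of all.

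The direction of transcription at the ends was mixed. Of D. virilis member ends near a coding start, 30.2% had starts reading into the TAD only, 27.1% reading away only and 42.7% in both directions (37.6% to 47.9%). At the ends of longer TADs the shares were 32.9%, 33.3% and 33.8% (31.9% to 35.7%). Ends are counted per TAD here, so a boundary between a member and a longer TAD counts in both groups. In D. melanogaster 39.4% of member ends and 38.8% of ends of longer TADs had starts in both directions, with overlapping intervals.

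**Figure D4:**
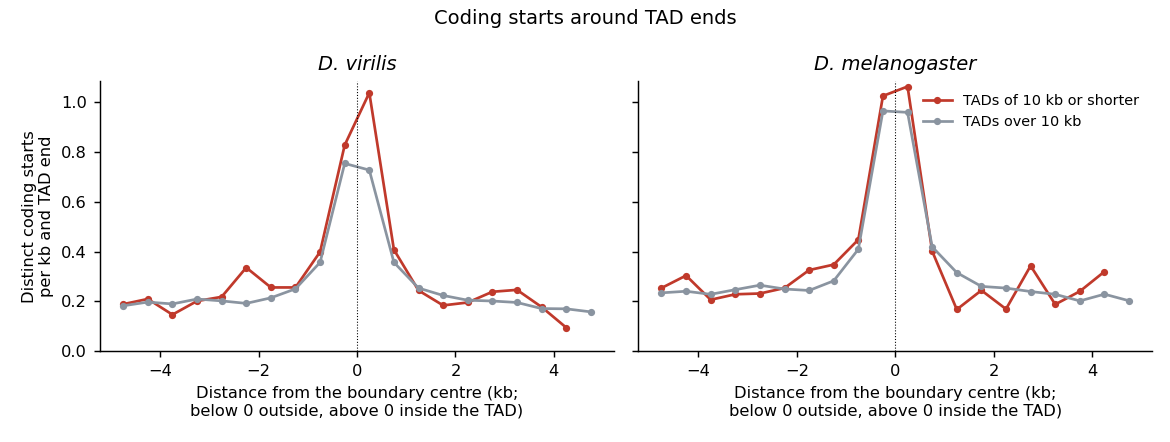
Distinct coding starts per kb and TAD end (y axis) against distance from the boundary centre in 500 bp bins (x axis; below 0 outside and above 0 inside the TAD), for members (red) and longer TADs (grey) of D. virilis and D. melanogaster. Inward bins stop at the middle of a TAD, and bins with under 40 ends are not drawn. Both groups peak at the boundary and are far lower from 1000 to 1500 bp inward, at 0.244 in members and 0.254 in longer TADs of D. virilis, and 0.168 and 0.316 in D. melanogaster.

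A short TAD that ends at 2 starts is dense in starts by its construction, and the counts show how far this goes. Members held 3.81 distinct coding starts per 10 kb in D. virilis (Poisson 95% interval 3.49 to 4.14) and longer TADs 1.09; in D. melanogaster the values were 4.00 (3.71 to 4.30) and 1.44. Counting only positions over 1000 bp from either end, members had 2.07 and longer TADs 0.983 in D. virilis, and 2.20 and 1.28 in D. melanogaster. The profile around the ends shows both groups at the same distance from a boundary. In the first 500 bp inward D. virilis had 1.04 starts per kb in members and 0.728 in longer TADs, and from 1000 to 1500 bp inward 0.244 and 0.254. In D. melanogaster the values were 1.063 and 0.959, then 0.168 and 0.316. Farther in, members lay above longer TADs in some bins and below in others: from 2500 to 3000 bp inward D. melanogaster had 0.343 in members and 0.240 in longer TADs, and from 2000 to 2500 bp 0.169 and 0.254.

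Most members held at least 1 promoter, and few held many. In D. virilis 198 of 238 members (83.2%; 77.9% to 87.4%) had a coding start inside, against 97.2% of longer TADs and 95.7% of all. In D. melanogaster 259 of 319 (81.2%; 76.5% to 85.1%) did, against 98.5% of longer TADs and 96.0% of all; longer TADs have more room for a start. The number of distinct coding starts in a D. virilis member was 0 in 40, 1 in 56, 2 in 43, 3 in 43, 4 in 33 and 5 to 8 in the other 23. The median was 2 starts in members of either species, against 7 in longer TADs of D. virilis and 8 in those of D. melanogaster.

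**Figure D5:**
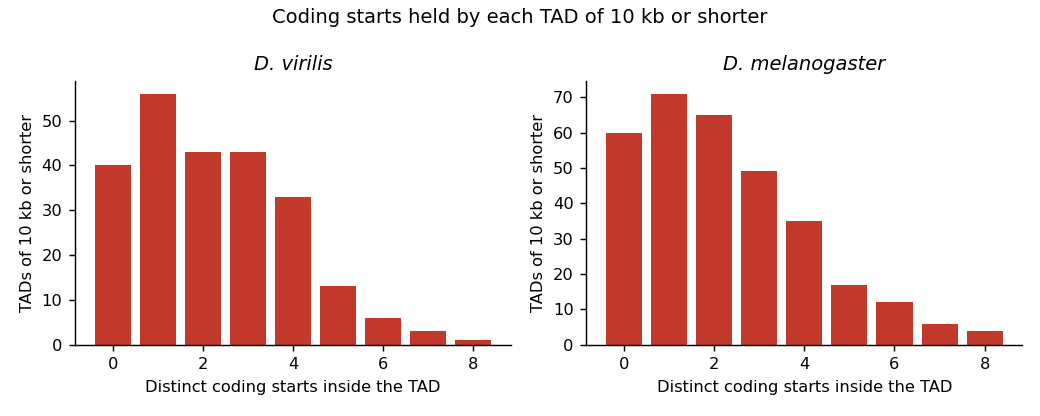
Number of members (y axis) by the distinct coding starts they hold (x axis), in D. virilis and D. melanogaster. The most frequent number is 1, in 56 D. virilis and 71 D. melanogaster members, and the highest is 8.

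Most members held a whole coding gene, though less often than longer TADs, which have more room. A whole coding gene lay inside 159 of the 238 D. virilis members (66.8%; 60.6% to 72.5%), against 92.2% of longer TADs and 89.4% of all. Of the members 64 held 1, 61 held 2, 23 held 3, 10 held 4 and 1 held 5. In D. melanogaster 197 of 319 members (61.8%; 56.3% to 66.9%) held a whole coding gene, against 92.9% of longer TADs and 88.4% of all, and 106 members held 1 and 1 held 6. Coding genes covered 78.6% of the member length in D. virilis, against 59.8% of the length of longer TADs, and 85.7% against 68.0% in D. melanogaster. The coding genes that start in members were not short ones. Their median length was 2.20 kb in D. virilis, against 2.21 kb for genes that start in longer TADs only, and 2.41 kb against 2.15 kb in D. melanogaster; the upper quartiles were 3.76 against 5.54 kb and 4.33 against 5.01 kb.

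The D. virilis members with the most coding starts held several genes or several starts of a few genes. The member on 3R from 14556793 to 14566763 measured 9.97 kb, held 8 coding starts of 6 genes, among them GJ24096 and GJ23136, and scored -0.0890 and -0.251. A member of only 4.43 kb on 3L, from 24103475 to 24107908, held 7 starts of GJ12804, GJ12605 and GJ12803, with starts 160 and 10 bp from its boundary centres. On 3R from 19357527 to 19363240, 6 starts belonged to only 2 genes, GJ23833 and GJ23383, neither of them wholly inside. In D. melanogaster 4 members held 8 coding starts. On 3R from 9047877 to 9053434 these belonged to Rel, an NF-kappa B factor of the immune response, with Nmdmc, Mst85C and the histone demethylase gene Kdm2, and the scores were -0.273 and -0.280. On X from 9155947 to 9163901 they belonged to genes that include His3.3B, a histone H3.3 gene, Ost48, Zpr1 and mei-P26.

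Some members lay wholly within a gene. This was so for 18 D. virilis members (7.56%; 4.84% to 11.6%), against 2.44% of longer TADs and 3.02% of all, and for 43 D. melanogaster members (13.5%; 10.2% to 17.7%), against 3.24% and 4.72%. Genes around such members in D. melanogaster included brat, a translational repressor of neural stem cells, the synapsin gene Syn, the transcription factor gene cnc, lov, and Trl, which encodes the GAGA factor. The lov member, on 2R from 25134192 to 25136275, was weak at both ends, with scores of 0.476 and 0.485, while the Trl member, on 3L from 14756653 to 14759988, scored -0.164 and -0.165. No gene overlapped 6 D. virilis members (2.52%, 1.16% to 5.39%), against 0.743% of longer TADs and 0.943% of all. The same held for 9 D. melanogaster members (2.82%, 1.49% to 5.27%), against 0.159% and 0.545%. A short stretch fits inside a gene, or between genes, more easily than a long one. The part of length in these shares was not tested.

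Few D. virilis genes carry a name other than a GJ number, and those that start in members have varied roles, known from D. melanogaster. Hsp83, the Hsp90 chaperone gene, started in a member of 6.35 kb on 3L (17454863 to 17461210) with 3 other genes, and Cdc37, whose product is a co-chaperone of Hsp90, in a member of 7.80 kb on 3L (21578943 to 21586747) with 4 others. Their end scores were -0.000825 and -0.0573 for the Hsp83 member and -0.216 and -0.124 for the Cdc37 member. Sod, a superoxide dismutase gene, shared a member of 4.17 kb with GJ14021. stau, whose product localises maternal RNAs, started in a member of 6.44 kb on 2R with both scores above 0, at 0.0104 and 0.0340. The homeobox gene ro, the odorant binding protein gene Obp49a, Pcd, vlc and Sry-alpha were other named coding genes that start in members.

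Noncoding genes were present in members in small numbers. In D. virilis 8 of 164 small nucleolar RNA genes (4.88%; 2.49% to 9.33%), 7 of 270 transfer RNA genes (2.59%) and 1 of 131 microRNA genes started in a member, against 452 of 13323 coding genes (3.39%; 3.10% to 3.71%). The microRNA was mir-308, in a member of 9.65 kb on 2R from 8303102 to 8312755 with no coding start. Of 334 genes of the class ncRNA 7 started in a member (2.10%, 1.02% to 4.26%), as did 2 of 30 small nuclear RNA genes (6.67%, 1.85% to 21.3%). These were the spliceosomal genes snRNA:U5:2 and snRNA:U2:2. They lay together with a transfer RNA gene in a 6.93 kb member on 2L, from 5249147 to 5256081, that scored -0.257 and -0.264. In D. melanogaster 22 of 268 small nucleolar RNA genes (8.21%; 5.48% to 12.1%) started in a member, against 575 of 13910 coding genes (4.13%; 3.82% to 4.48%); neighbouring small nucleolar RNA genes often share 1 host gene and are not independent.

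Gene groups were counted in D. melanogaster, where symbols are complete. Of 84 cytosolic ribosomal protein genes 9 started in a member (10.7%; 5.74% to 19.1%), among them RpL12, RpL31, RpL32, RpL39, RpS20 and RpS4. Beside the 4.13% of all coding genes, the interval of this group lay above, and RpL12 and RpL39 shared 1 member. Mitochondrial ribosomal proteins had 5 of 73 (6.85%; 2.96% to 15.1%), translation factors 4 of 51 (7.84%; 3.09% to 18.5%), with eIF4E1 and eIF2beta among them, and proteasome subunits 2 of 48, Rpn9 and Rpt6. The intervals of these 3 groups included the value of all coding genes.

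Among the remaining gene groups, chemosensory receptors lay below the share of all coding genes and the intervals of the others included it. Of 185 chemosensory receptor genes 1 started in a member, the carbon dioxide receptor gene Gr63a (0.541%; 0.0955% to 2.998%), an interval below the 4.13% of all coding genes. Odorant binding proteins had 1 of 51, Obp69a (1.96%; 0.347% to 10.3%), and cuticle proteins 2 of 94, Cpr67Fa2 and Cpr67Fb (2.13%; 0.585% to 7.43%). None of 12 Hox and anterior complex genes, of 32 linked developmental regulators or of 8 dosage compensation genes started in a member; counts of 0 allow shares of up to 24.2%, 10.7% and 32.4% by the Wilson interval. Architectural proteins had 1 of 15, Trl, and the NSL complex 1 of 7, MBD-R2. In D. virilis these groups have few named genes, and of them 1 of 39 odorant binding protein genes started in a member, as did no named gene of the other lists.

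Named genes could be compared between species in small number. Of 250 D. virilis coding genes matched by symbol to D. melanogaster, 13 started in a member in D. virilis (5.20%; 3.06% to 8.69%), 13 in D. melanogaster (5.20%) and 3 in both: vas, Trx-2 and Aats-tyr. vas encodes a germline RNA helicase, Trx-2 a thioredoxin and Aats-tyr, named TyrRS in D. melanogaster, the tyrosyl-tRNA synthetase. Over all coding genes the shares were 3.39% in D. virilis and 4.13% in D. melanogaster, both within the interval of the matched genes. The 3 genes shared are 3 of 13 in either species, and the overlap was not tested. Symbols were given to genes by annotators and do not sample the genome evenly.

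The 3 shared genes lay on the same arm in both species. The paper reports this of most conserved sequence, and the share over all matched genes is not given here. The Trx-2 member measured 5.87 kb in D. virilis (2L from 5776894 to 5782761; scores -0.204 and -0.205) and 4.05 kb in D. melanogaster (2L from 9612990 to 9617035; -0.146 and -0.130). The vas member measured 8.65 kb in D. virilis, with scores of -0.135 at both ends, and 6.90 kb in D. melanogaster, with -0.176 and -0.140. In D. virilis it also held the start of TfIIS, an elongation factor gene, whereas in D. melanogaster TfIIS started in the adjoining TAD of 22.7 kb. The Aats-tyr member measured 9.29 kb in D. virilis, where it also held the start of fax, and 7.31 kb in D. melanogaster, where fax started in the adjoining TAD of 26.7 kb.

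Sry-alpha and RpL32 had the reverse arrangement. In D. virilis Sry-alpha lay in a member of 3.95 kb on 3R, ending at 26838898, and RpL32 started in the next TAD of 19.3 kb. In D. melanogaster RpL32 started in the member of 5.36 kb described above and Sry-alpha in the adjoining TAD of 23.1 kb. Other matched genes were in members of 1 species only. Hsp83, in a member in D. virilis, had a TAD of 34.1 kb around it in D. melanogaster. The gene osk, which specifies the germ plasm, lay in a TAD of 136 kb in D. virilis and in a member of 5.90 kb in D. melanogaster, and Trl in a TAD of 94.01 kb in D. virilis.

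Motifs at member ends in D. melanogaster were close to those at all boundaries. Motif 1 lay within 500 bp of 10.6% of member ends (65 of 612) and 10.5% of all boundaries, and the DRE, TATCGATA, of 15.8% and 14.1%. A run of GAGAGAG was found at 15.5% and 14.8%, the CTCF core AGNNGGCGC at 14.4% and 13.4%, Motif 6 at 3.59% and 3.58%, and the Su(Hw) motif at 0.817% and 1.27%, all on either strand. Counts at both ends of a TAD were small: Motif 1 in 5 of 319 members, against 9 of 1884 longer TADs, and the DRE in 10 and 41. Motif 1 or the DRE at both ends was found in 24 members (7.52%; 5.11% to 10.95%) and 90 longer TADs (4.78%; 3.90% to 5.84%), with overlapping intervals. The sequences shown above come from this group.

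Features of the maps and assemblies that could bear on short TADs were also read. No D. virilis member overlapped any of the 104 gaps of 5000 bp between scaffold pieces, while 79 longer TADs (4.20%) contained the middle of a gap. Members held only 0.908% of the length in TADs, which leaves little room for gaps, and the part of length was not tested. The gap length is that of the deposited assembly record, and the paper's methods name a shorter spacer. D. melanogaster members had a median of 21 DpnII sites, the cutting sites that set the resolution of the map, and at least 3. They had 3.90 sites per kb, against 2.77 in longer TADs, and a GC content of 45.1%, against 42.1%. Boundaries can be placed more finely where sites are dense, and the part of site density in the number of members was not tested.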

How the data were processed

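The members, gene lists and motifs were chosen with earlier results of these data known. Per the labels and methods, the authors mapped Hi-C reads with BWA, merged 2 replicates per species, corrected the matrices and called boundaries with HiCExplorer. The deposited lists give positions and a TAD-separation score for each boundary; the read depth behind a boundary is not given. The authors moved the deposited D. virilis annotation to their Hi-C assembly. For D. melanogaster, genes of Ensembl release 115 on BDGP6.54 were used and transposable elements left out. To check the build, matrix bins were rebuilt around DpnII sites of BDGP6: with the best of 24 bin settings, 82.3% of 4418 boundary edges lay within 3 bp of a bin centre, against 1.34% after an offset of 5000 bp. In D. virilis, 65.5% of boundaries lay within 1000 bp of a start, against 26.6% and 27.4% after offsets of 5000 bp.

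TADs ran between centres of consecutive boundaries. A start site was the first base of a transcript, and identical starts were counted once. Genes named were those in the 5 shortest members, the 5 with most coding starts, the longest runs and the 5 with the lowest mean score, members of the gene lists, and D. virilis genes with a symbol other than a GJ number; some further examples were chosen after their values were seen. Older symbols were matched through RefSeq synonyms. No test was run, since each species has 1 map. Code was tested on simulated boundary lists. The software was matplotlib 3.10.9, SciPy 1.17.1 and NumPy 2.4.6 under Python 3.11.15. Sequences of arm 2R were not considered for display. The D. busckii samples for assembly were not analysed here. Some genes that this rule names are not reported here.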

Additional observations from a re-analysis of the deposited data

How the results depend on the processing

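No paired analysis was possible because each species has 1 merged map. Keeping only the stronger 50% of boundaries left 126 members in D. virilis, 137 in D. busckii and 174 in D. melanogaster, though their shares of TADs stayed within the main intervals. A limit of 8000 bp gave shares of 9.10%, 9.16% and 12.03% in D. virilis, D. busckii and D. melanogaster, and 12000 bp gave 12.8%, 16.1% and 17.0%. In D. busckii the share was 14.4% measured from boundary end to start and 10.8% from start to end. The share next to another member was 13.0% at 8000 bp in D. virilis and 20.6% at 12000 bp in D. melanogaster. Windows of 500 and 2000 bp put 60.3% and 85.1% of D. virilis member ends at a start, and 66.5% and 88.6% in D. melanogaster. A whole coding gene lay in 66.8% of D. virilis members, against 89.4% of all TADs, and in 61.8% of D. melanogaster members, against 88.4%. A gene midpoint lay in 86.5% of D. melanogaster members. With 1 start per gene, density was 3.14 per 10 kb in D. virilis and 2.82 in D. melanogaster; away from the ends, an alternative chosen after seeing the data, it was 2.07 and 2.20. Motif windows of 250 and 1000 bp gave 6.86% and 13.9% for Motif 1, 9.48% and 20.9% for the DRE, 9.15% and 25% for GAGA, and 9.15% and 25.3% for CTCF; 250 bp gave 2.29% for Motif 6 and 0.163% for Su(Hw). The values for other start windows, gene midpoints and other motif windows have no share over all boundaries or TADs beside them. They describe members alone, since a wider window raises the share of any boundary. Median end scores stayed within their intervals under every alternative run. Close boundaries that the caller merged or missed cannot be seen in the lists.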
